A study of Mus musculus with 8 samples.

Results

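The metallothionein genes Mt1 and Mt2 and the zinc transporter genes Slc30a1, Slc39a14 and Slc39a8 were described here across the cell types of the mouse lung, as 5 genes of the 33027 in the deposited single-cell matrix. Lungs of 4 mice exposed to cigarette smoke (CS) and of 4 mice kept in room air (RA) were compared. The 5 genes were selected on a readout of these same data, the higher Mt1 level in alveolar type 2 (AT2) cells of CS mice when cells were compared. All values of the 5 genes in AT2 cells under CS and RA were therefore given as a description, without a test. All 8 mice were C57BL/6 mice of the Sftpc-CreERT2-mTmG line, in which tamoxifen switches cells that express the surfactant gene Sftpc from the red reporter tdTomato to the green reporter eGFP. They received tamoxifen at 8 to 10 weeks of age and entered the exposure 2 weeks later. CS mice breathed smoke of 3R4F research cigarettes for 6 h a day on 5 days a week over 10 months. Right lungs were digested, and CD45- and CD45+ cells, sorted on magnetic columns, were loaded in shares of 90% and 10%, so the shares of cell types were partly set by the sort. The values come from 20330 CS and 19744 RA cells in 32 cell types named by the authors, and the labels give 2 males and 2 females per group. The study itself reports other cell numbers per group and another number of cell types. Summed transcript counts after removal of free RNA were between 33145096 and 48490570 per CS mouse and between 31094695 and 52753530 per RA mouse, and 197 cell barcodes occurred in more than 1 library. The sex labels of the CS libraries went against their sex-linked transcripts. Both CS libraries labelled male held Xist at 7.83 and 8.34 transcripts per 10000, and both labelled female held Ddx3y at 0.925 and 1.08, whereas the 4 RA libraries matched their labels, so that either reading leaves 2 males and 2 females per group.

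Metallothioneins are small, cysteine-rich proteins that bind zinc, copper and cadmium in the cytosol. Their genes are switched on by the zinc-sensing transcription factor MTF-1, which binds metal response elements close to the start of transcription, and also by glucocorticoids. Slc30a1 encodes ZnT1, the exporter that moves zinc out of the cell and is a textbook MTF-1 target as well. Slc39a14 and Slc39a8 encode ZIP14 and ZIP8, importers of zinc, manganese and other divalent metals at the cell surface. AT1 cells are the thin cells across which gas diffuses, and AT2 cells make surfactant and can give rise to AT1 cells.

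In the GENCODE annotation of GRCm38, Mt2 (chr8:94172664-94173568, plus strand) and Mt1 (chr8:94179082-94180327, plus strand) lie next to each other, with 5514 bases from the end of Mt2 to the start of Mt1. Slc30a1 lies at chr1:191906767-191913247 (plus strand), Slc39a8 at chr3:135825279-135888572 (plus strand) and Slc39a14 at chr14:70303469-70351425 (minus strand). RefSeq promoter sequences (GRCm38.p6) were found for 4 of the 5 genes. The 250 bases before the RefSeq start of each are shown, because MTF-1 is known to act through such elements before Mt1, Mt2 and Slc30a1, and Slc39a8 is the other member with an entry. Capitals mark matches to the core letters of the metal response element, TGCACNC or TGCGCNC, on either strand, where a match on the reverse strand reads GNGTGCA or GNGCGCA. The windows span chr8:94178839-94179088 for Mt1, chr8:94172368-94172617 for Mt2, chr1:191906531-191906780 for Slc30a1 and chr3:135825029-135825278 for the outer start of Slc39a8, each on the plus strand.
Mt1: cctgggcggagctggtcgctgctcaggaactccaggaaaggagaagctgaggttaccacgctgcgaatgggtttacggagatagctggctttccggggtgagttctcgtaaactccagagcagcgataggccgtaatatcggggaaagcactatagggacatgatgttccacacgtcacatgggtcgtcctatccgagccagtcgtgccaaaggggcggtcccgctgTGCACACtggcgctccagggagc
Mt2: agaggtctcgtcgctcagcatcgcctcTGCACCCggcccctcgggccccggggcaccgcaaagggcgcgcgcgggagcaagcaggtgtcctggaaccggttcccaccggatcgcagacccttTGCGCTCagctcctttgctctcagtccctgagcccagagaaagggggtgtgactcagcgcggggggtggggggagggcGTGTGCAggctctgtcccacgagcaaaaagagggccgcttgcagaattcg
Slc30a1: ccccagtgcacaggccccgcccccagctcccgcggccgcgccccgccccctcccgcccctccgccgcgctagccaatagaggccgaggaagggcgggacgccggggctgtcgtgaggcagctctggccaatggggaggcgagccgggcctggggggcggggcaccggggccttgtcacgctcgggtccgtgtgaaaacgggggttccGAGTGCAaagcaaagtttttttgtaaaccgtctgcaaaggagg
Slc39a8: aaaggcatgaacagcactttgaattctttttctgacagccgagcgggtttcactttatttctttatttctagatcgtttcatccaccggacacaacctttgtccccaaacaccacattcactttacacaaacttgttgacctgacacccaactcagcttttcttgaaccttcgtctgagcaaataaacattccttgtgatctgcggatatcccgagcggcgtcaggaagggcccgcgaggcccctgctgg
Mt2 held 3 matches, the nearest beginning 50 bases before the start, Mt1 held 1 at 23 bases and Slc30a1 held 1 at 43 bases. The outer Slc39a8 window held 0 and the window before a second annotated start of that gene held 1. Of all 32851 windows of this length, 21.4% held at least 1 match and 1.26% held 3 or more. GENCODE lists 3 transcript starts for Mt1 within its first exon, and the 159 bases between the outermost and the innermost held a further 4 matches. In the 196 bases between both starts listed for Mt2 there were 3. A match describes the letters only and does not show binding.

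Levels are given as transcripts per 10000 of a cell's transcripts, averaged over the cells of a type in each mouse, and n counts mice. These 3' counts include spliced and unspliced transcripts and were not scaled to the length of the gene. Mt1 was high in ciliated cells (23.6 ± 4.85, SD, n = 8) and alveolar macrophages (23.1 ± 3.90, n = 8), 2 levels that differed by less than their spread. Peribronchial fibroblasts (13.7 ± 3.53, n = 6) and adventitial fibroblasts (11.3 ± 4.40, n = 8) followed, again without a gap beyond the spread, and both lay below the leading pair by more than 1 SD. AT2 cells (6.25 ± 2.82, n = 8) and alveolar fibroblasts (5.75 ± 3.87, n = 8) were alike within the spread. Club (3.07 ± 0.988), goblet (2.46 ± 1.27) and lymphatic endothelial cells (2.56 ± 1.58, each n = 8) formed a middle range. General capillary endothelial cells (gCap, 0.216 ± 0.126) and aerocytes (0.156 ± 0.0662, each n = 8), the capillary cells specialised for gas exchange, were at the low end. The plot of Mt1 by cell type shows this order for each mouse. Of 26 types with at least 20 cells in 3 or more mice, 14 had a mean Mt1 level of 1 or more. Types with fewer such mice were left out of this order. Pooled over cells of all mice, Mt1 was 12.9 in interstitial macrophages, 11.8 in mature dendritic cells and 7.30 in neuroendocrine cells. It was 1.16 and 0.962 in conventional dendritic cells of type 1 and 2, and 0.464 in plasmacytoid dendritic cells.

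**Figure D1:**
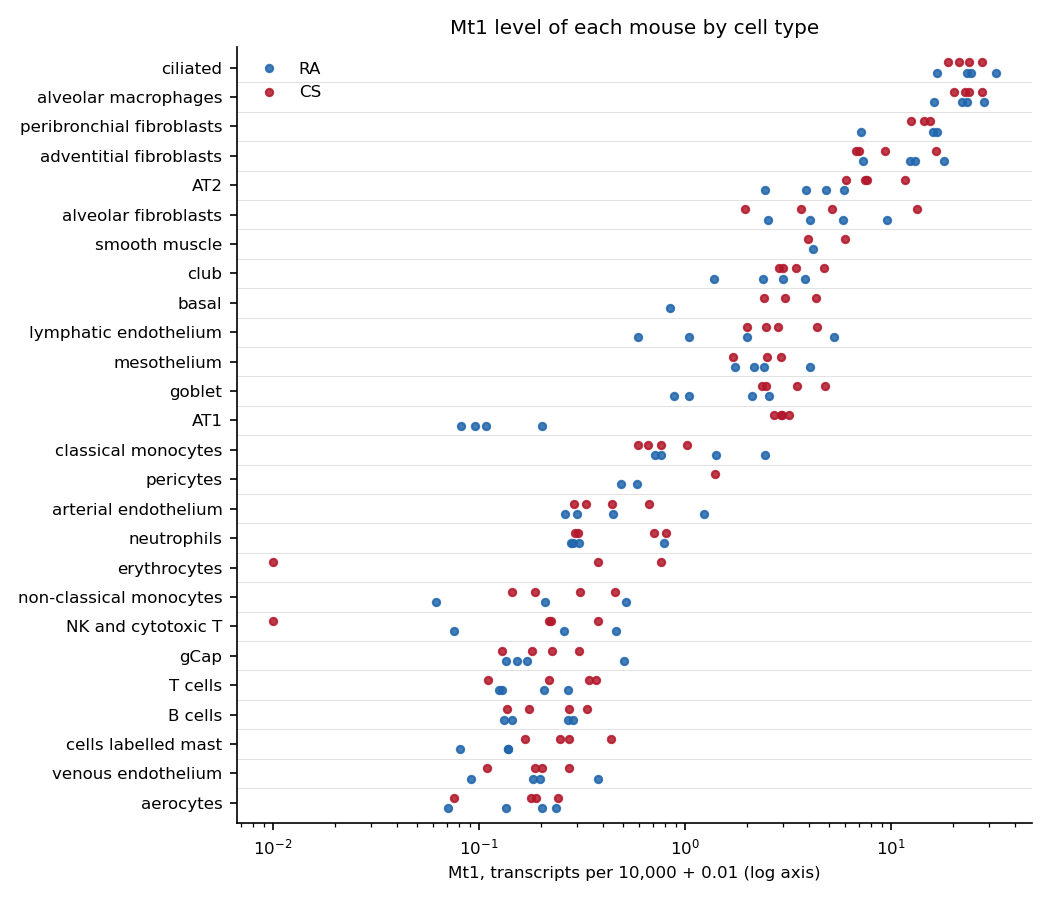
Mt1 level of each mouse (points; transcripts per 10,000 plus 0.01, log axis) in 26 cell types, ordered by the mean over mice, RA in blue and CS in red. In AT1 cells the CS mice lie at 2.70 to 3.19 and the RA mice at 0.0719 to 0.191; at the top, CS and RA mice of ciliated cells and alveolar macrophages overlap.

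Mt2 was lower and led in the same 4 types in another order, with 5.48 ± 1.48 in alveolar macrophages, 4.79 ± 1.18 in ciliated cells and 2.82 ± 1.04 in adventitial fibroblasts (SD, n = 8 each). The Pearson correlation of both genes over 28 cell types, on log2(level + 1), was 0.98, and each was the gene most like the other. The next genes most like Mt1 over cell types were Egr2 (r = 0.79), an immediate-early transcription factor, Pfdn2 (0.77), Acaa1a (0.76) and Fem1b (0.75). The cell types share libraries and differ in depth, so these coefficients are descriptions. Over 128 values of mouse and type, taken as deviations from the type's mean in 16 types without AT2, Mt2 had the highest correlation with Mt1 (r = 0.78), and the next, Spry2, reached 0.44, followed by Hmgcs1 (0.42), Mfsd4a (0.41), Tpm1 (0.39), Slco2a1 (0.39), Tuba1b (0.38), 4933434E20Rik (0.37), Wdr59 (0.37) and Slc25a24 (0.36). The same 8 mice recur in every type, so these coefficients are descriptions too. Mt1 made up 80.9% ± 3.12 (SD, n = 8) of the summed Mt1 and Mt2 level in alveolar macrophages, 83.2% ± 1.78 in ciliated cells and 80.0% ± 1.80 in AT2 cells. The share in mesothelial cells was 72.1% ± 4.15 (n = 7).

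In AT1 cells Mt1 rose under smoke. Its level was 2.70, 3.19, 2.90 and 2.96 in the 4 CS mice and 0.191, 0.0859, 0.0980 and 0.0719 in the 4 RA mice. Every CS mouse stood far above every RA mouse, and so necessarily in each of the 4 sequencing lanes, which held 1 mouse of each group. The difference in log2(level + 1) was 1.82 (SE 0.067, 95% interval 1.68 to 1.97), with an adjusted p of 1.56e-10 in limma, and Mt1 ranked 1 by p among 8873 genes tested in AT1 cells. Of those genes, 2.38% passed the test in either direction, and 5.77% had every CS mouse above every RA mouse. The group means, 2.94 ± 0.204 and 0.112 ± 0.0541 (SD over 4 mice per group), differed 26.3-fold, a ratio that rests on the very low RA level. In summed transcripts, the CS mice had 272 to 526 Mt1 transcripts in their 70 to 173 AT1 cells, and the RA mice had 1.61 to 32.1 in 50 to 153 cells.

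The Mt2 level in AT1 cells stood at 0.202, 0.343, 0.340 and 0.466 in CS mice and at 0.0463, 0.0436, 0.0550 and 0.00899 in RA mice, with no overlap between the groups. Mt2 entered the test through the CS cells, of which 21.4% held it against 5.72% of RA cells, so the filter itself favoured a difference. The log2 difference was 0.36 (SE 0.050), and its adjusted p of 0.00137 in limma is given without reading a result from it. The difference was 1.64 with a pseudocount of 0.1, and when no gene was left out for low detection its adjusted p was 0.0510, which misses the threshold. Mt1 made up 89.8% ± 2.72 (SD, n = 4 CS mice) of both in AT1 cells.

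**Figure D2:**
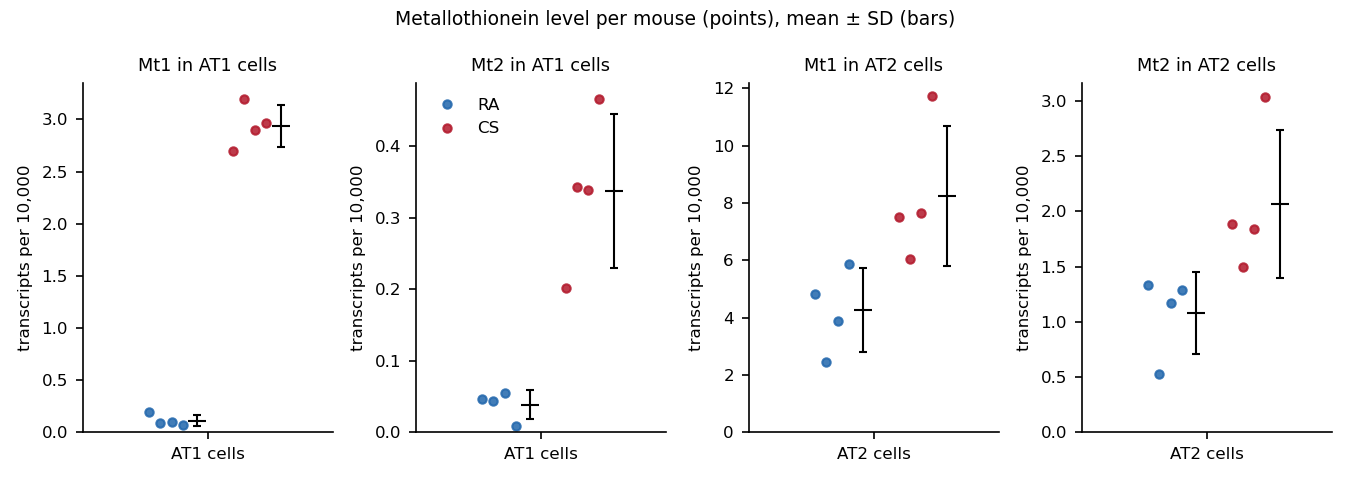
Mt1 and Mt2 level (transcripts per 10,000, linear axes from 0) per mouse in AT1 and AT2 cells, RA in blue and CS in red, with mean ± SD beside the points (n = 4 mice per group). In AT1 cells the RA mice lie near 0 and the CS mice at 2.70 to 3.19 for Mt1; in AT2 cells both groups carry transcripts and the CS mice lie higher.

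The change in AT1 cells was carried by many cells. Mt1 was found in 61.4%, 62.0%, 64.7% and 70.6% of AT1 cells of the CS mice and in 16.3%, 13.5%, 10.1% and 6.00% of those of the RA mice. The median AT1 cell of each CS mouse had a level of 0.819 to 1.19, while the median was 0 in every RA mouse, and the highest 10% of cells began at 7.30 to 9.53 under CS. To set depth aside, each cell was reduced to 2000 transcripts. The share of AT1 cells with Mt1 was then 31.4% ± 1.38 under CS and 1.81% ± 0.754 under RA (SD over 4 mice per group). By exact permutation p was 0.0286, the smallest possible, and 0.200 after adjustment over 42 tests. That adjustment can be passed only when many tests sit at the smallest p, so nothing is read from missing it. In gCap cells, which were among the types with the lowest level, 4.32% ± 1.0 of CS and 3.85% ± 2.03 of RA cells held Mt1 at that depth. The RA share in AT1 cells was thus no higher than in capillary cells and is not read as expression. Free RNA was not measured here, and the capillary cells are not known to lack Mt1. Median depth was 8346 to 12857 transcripts in AT1 cells of CS mice and 9708 to 17293 in RA mice, and 3025 to 5226 in gCap cells.

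**Figure D3:**
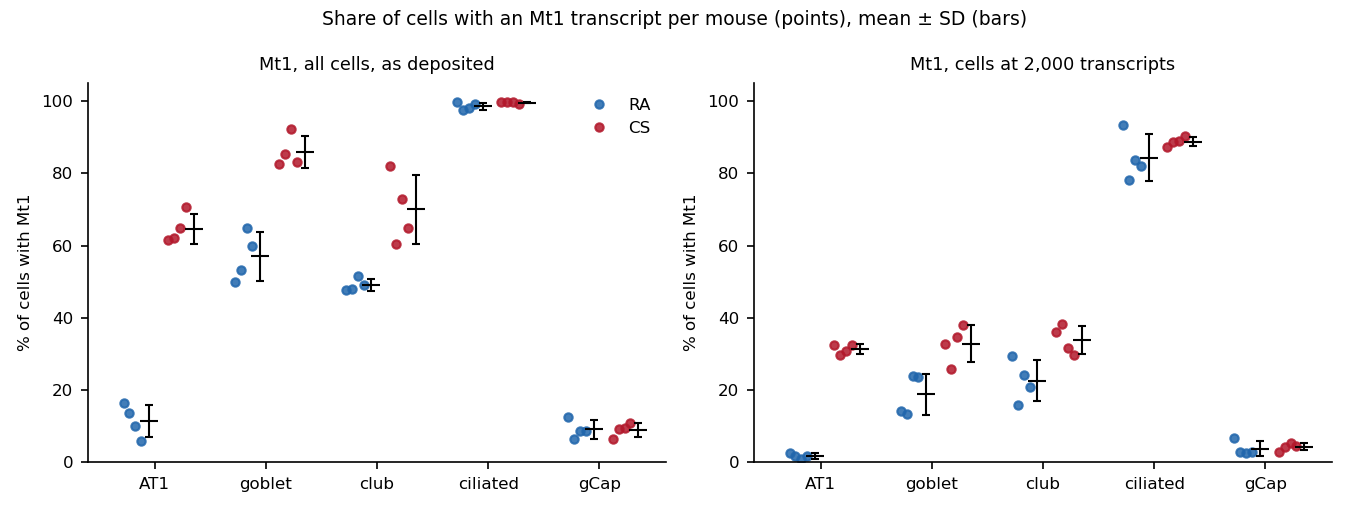
Share of cells with an Mt1 transcript (%) per mouse in 5 cell types, for all cells as deposited (left) and for cells reduced to 2,000 transcripts (right), RA in blue and CS in red, with mean ± SD (n = 4 mice per group). In AT1 cells at equal depth the CS mice lie at 29.7 to 32.5% and the RA mice at 0.850 to 2.69%, while gCap cells of both groups stay low.

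AT1 cells carried their defining markers in both groups. Ager, Hopx and Rtkn2 summed to 228 to 270 per 10000 in CS and 271 to 313 in RA mice, a lower sum in every CS mouse whose part in the result was not tested. Transcripts of other cells overlapped between the groups. The AT2 markers Sftpc, Sftpa1 and Lamp3 summed to 0.0761 to 4.70 in CS and 0.106 to 11.5 in RA mice, those of alveolar macrophages to 0.0172 to 1.05 and 0.00364 to 0.307, and those of ciliated cells to 5.07 to 6.26 and 3.44 to 6.48, beside 26.7 to 30.3 in ciliated cells themselves. Club cell markers reached 9.56 to 71.1 in CS and 0.00593 to 47.7 in RA mice. In AT1 cells without a transcript of Lamp3, Foxj1, Marco, Ear2, Ptprc, Pecam1, Col1a1, Scgb1a1 or Msln, Mt1 was 2.83, 2.65, 3.17 and 2.50 in CS mice and 0.165, 0.0579, 0.102 and 0.0972 in RA mice, a log2 difference of 1.77, beside 1.82 over all AT1 cells. Sftpc was not among these genes, so AT1 cells with Sftpc transcripts stayed in. The green reporter was found in 39.9 to 50.3% of AT1 cells of CS mice and 36.5 to 42.0% of those of RA mice. It was also found in 47.7 to 83.4% of ciliated cells, so its presence in a droplet is not read as a mark of lineage. AT1 cells without it had Mt1 at 2.34 to 3.35 in CS and 0.0472 to 0.146 in RA mice. The mitochondrial share of transcripts was higher in AT1 cells of CS mice (2.13 to 3.16%) than of RA mice (1.58 to 1.92%), and its part in the result was not tested. With cells above 5% left out, the log2 difference was 1.91 (limma adjusted p = 6.42e-10).

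Among 6 corticosteroid target genes, 2 fell in AT1 cells of CS mice, where 2.38% of all genes passed in either direction. They, and Dusp1 below, are named after their values were seen. Tsc22d3, a transcript induced by glucocorticoids, was 1.53 ± 0.137 in CS and 5.10 ± 1.96 in RA mice (log2 difference -1.23, limma adjusted p = 7.58e-04). Zbtb16 was 0.611 ± 0.0897 and 2.73 ± 0.794 (-1.19, limma adjusted p = 2.15e-04, SD, n = 4 mice each). Per1 (0.07), Sgk1 (0.12), Cdkn1a (0.03) and Fkbp5 (-0.44) did not pass. The median over the 6 genes was -0.20, beside 0.00 over all genes tested in AT1 cells. Of 12 genes that respond to tissue digestion, 1, Dusp1, fell there (-0.72), and the list's median was -0.19. The part of either list in the rise of Mt1 was not tested.

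AT2 cells had Mt1 at 7.51, 6.06, 7.66 and 11.7 in CS mice and at 4.84, 2.45, 3.87 and 5.88 in RA mice. The lowest CS mouse, at 6.06, was just above the highest RA mouse, and CS replicate 4 stood above the rest. Mt2 was 1.89, 1.50, 1.84 and 3.04 in CS and 1.33, 0.527, 1.17 and 1.29 in RA mice, likewise without overlap. The group means were in a ratio of 1.93 for Mt1 and 1.91 for Mt2. The AT2 contrast chose the genes, so nothing is read from the 2.47% of 9032 genes whose CS mice all stood above the RA mice there. Mt1 was present in 90.4 to 94.8% of AT2 cells of CS mice and 74.4 to 80.3% of those of RA mice. Slc39a8 in AT2 cells was 2.77, 2.54, 2.07 and 2.43 in CS and 1.62, 1.93, 1.94 and 2.32 in RA mice, and Slc30a1 and Slc39a14 also overlapped between the groups. Within each mouse, the Mt1 level of AT1 cells was 25.3 to 52.7% of that of AT2 cells under CS and 1.22 to 3.95% under RA. For Slc39a8 the same share was 277 to 326% and 216 to 337%, which overlapped, whereas those of Mt1 did not. These shares contain the AT2 contrast and are a description.

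In the airways, the smoke effect on Mt1 was smaller than in AT1 cells for 2 of 3 types in a test of the difference itself. Ciliated cells had 18.9, 23.9, 21.5 and 27.6 in CS mice and 32.3, 16.8, 24.5 and 23.5 in RA mice, which overlapped (log2 difference -0.05, 95% interval -0.44 to 0.33, limma adjusted p = 0.875). The effect in AT1 cells exceeded that in ciliated cells by 1.88 (SE 0.264, limma adjusted p = 0.00744) and that in club cells by 1.49 (SE 0.172, limma adjusted p = 0.0102). These contrasts passed for 1.92% and 0.748% of the genes tested. The planned test of differences was between compartments, and contrasts of single types were run beside it. AT1 cells had the largest Mt1 difference of all types tested, so they are the extreme of these contrasts. Goblet cells had 2.47, 2.37, 3.49 and 4.80 in CS mice and 1.04, 0.879, 2.55 and 2.10 in RA mice, a log2 difference of 0.71 (SE 0.224, limma adjusted p = 0.229) with 1 RA mouse inside the CS range. Against goblet cells, the AT1 effect was larger by 1.11 (SE 0.240, limma adjusted p = 0.0949), where 0.455% of genes passed. At 2000 transcripts, 32.9% ± 5.14 of CS and 18.8% ± 5.73 of RA goblet cells and 33.9% ± 3.85 of CS and 22.6% ± 5.75 of RA club cells held Mt1 (SD over 4 mice per group), each with p = 0.0286 by exact permutation and 0.200 after adjustment. The shares of AT1, goblet and club cells thus did not overlap between the groups, and how many genes were so separated at equal depth was not counted. None of the 42 tests passed after adjustment, which only many tests at the smallest p at once could do. In club cells the Mt1 level itself overlapped, at 2.85 to 4.70 in CS and 1.37 to 3.83 in RA mice (log2 difference 0.34, limma adjusted p = 0.572).

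**Figure D4:**
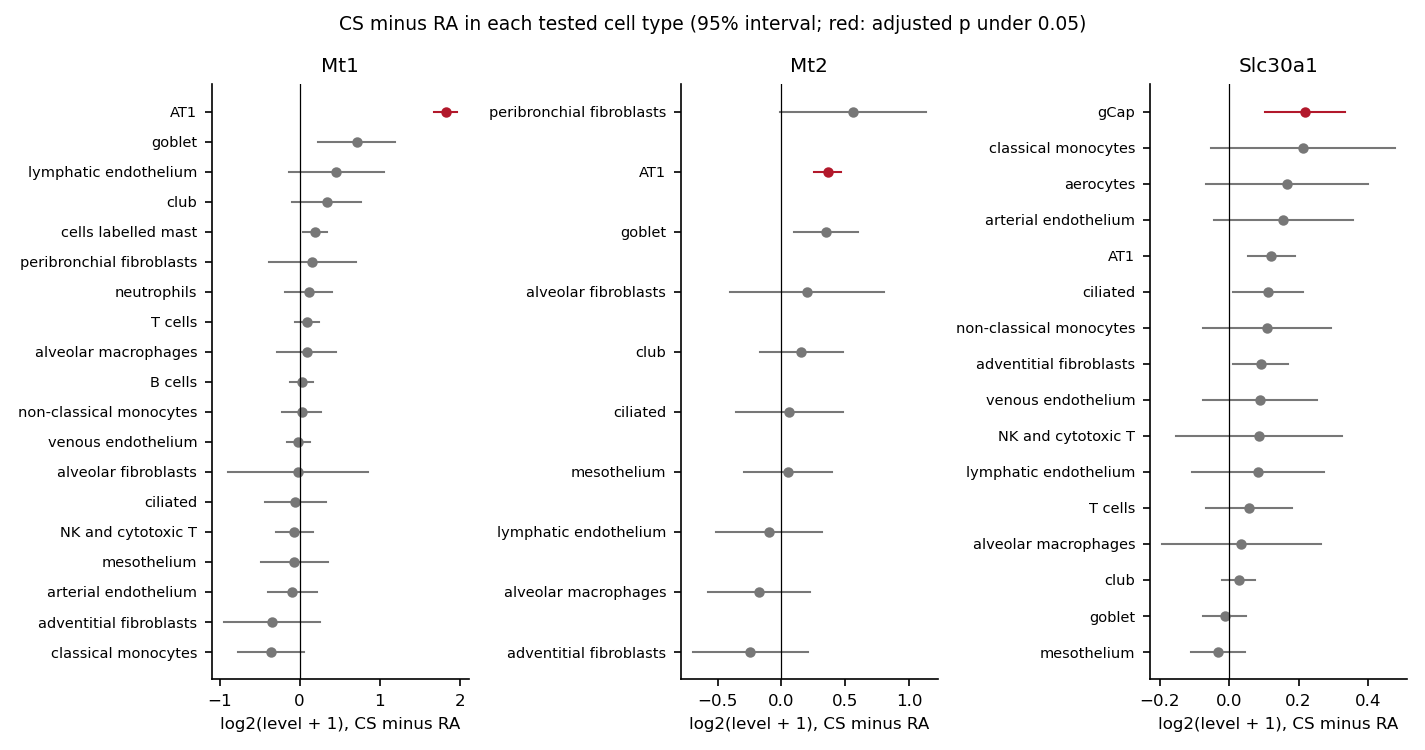
CS minus RA difference in log2(level + 1) of Mt1, Mt2 and Slc30a1 (points) with its 95% interval (lines) in each tested cell type outside AT2; red marks an adjusted p under 0.05. Mt1 in AT1 cells lies at 1.82, Mt2 in AT1 cells at 0.36 and Slc30a1 in gCap cells at 0.22; the intervals of most other types cross 0.

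Over all types outside AT2, 60 pairs of member and type were tested, and 3 of them (5%) passed, each higher under CS. The filter on detection admitted 10 of the 60 through CS cells only, Mt2 in AT1 cells among them, and 0 through RA cells only, so it favoured higher values under CS and nothing is read from the share or the direction. Of all 163230 pairs of gene and type, 1.3% passed in either direction. The shares that passed within a type were 2.38% in AT1 cells, 10.3% in gCap cells, 4.63% in ciliated cells, 3.1% in adventitial fibroblasts, 1.96% in aerocytes and 1.37% in alveolar fibroblasts. They were 0.669% in arterial and 0.13% in venous endothelium, 0.53% in alveolar macrophages, 0.306% in mesothelial, 0.199% in club and 0.177% in goblet cells, and 0% in the 9 other types. Mt1 was tested in 19 types and passed in AT1 cells alone, with 3 types at an unadjusted p under 0.05. Every CS mouse was also above every RA mouse in cells labelled mast (0.157 to 0.425 in 4 CS and 0.0712 to 0.129 in 3 RA mice), a pair that passed the filter through CS cells only, where 5.48% of genes tested were so separated. The opposite held for Mt2 in venous endothelium, too rare there to enter the test, with 0.00346, 0.0352, 0.0171 and 0.0972 in CS and 0.136, 0.121, 0.128 and 0.146 in RA mice. There 3.54% of genes tested had every CS mouse below every RA mouse. Outside AT1 and AT2 cells the Mt1 log2 differences ran from -0.36 in classical monocytes to 0.71 in goblet cells. In adventitial fibroblasts the difference was -0.35 (95% interval -0.95 to 0.25) and in gCap cells Mt1 was too rare to enter the test. Among 15 types found in all 8 mice, without AT1 and AT2, RA replicate 1 had the highest Mt1 level in 8. CS replicate 4 had it in 5, and a type that did not pass is not read as unchanged. When the types present in all 8 mice were averaged by compartment, the Mt1 effect was 0.71 in epithelial types without AT2, 0.07 in endothelial, -0.19 in mesenchymal and -0.01 in immune types. The epithelial value is a mean over 4 types, of which AT1 cells had 1.82, goblet cells 0.71, club cells 0.34 and ciliated cells -0.05. None of the 12 differences between compartments for Mt1 and Mt2 passed an exact permutation test (smallest p = 0.0286 for 3 of them, adjusted p = 0.114). Since 0.0286 is the smallest p possible with 4 against 4 mice, more than these 3 had to reach it for any to pass. Nothing is read from this outcome.

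In alveolar macrophages the Mt1 levels of the groups overlapped, with 23.8, 27.6, 20.2 and 22.9 in CS mice and 28.3, 16.1, 23.5 and 22.1 in RA mice (log2 difference 0.09, 95% interval -0.28 to 0.45, limma adjusted p = 0.914). Single macrophages varied widely. In RA replicate 1, the summed Mt1 and Mt2 level ran from 0.852 to 147 with a median of 30.7, and the medians of the other 7 mice lay between 17.0 and 22.2. Cells above the 95th percentile of all 418 alveolar macrophages, at 81.05 per 10000, made up 7.14%, 12.5%, 6.12% and 2.13% in CS mice and 4.46%, 0%, 3.23% and 5.66% in RA mice (exact permutation p = 0.200). The difference of the means, 3.64 percentage points, was 1.79 without CS replicate 2 and 5.25 without CS replicate 4. With cells reduced to 2000 transcripts it was 2.37 (exact permutation p = 0.429). The 0% stands for 0 of 44 cells, which allows a share of up to 6.82%, and 15 cells lay within 10% of the cut. These shares are a range of a continuous level, and the median depth was 5251 transcripts above the cut and 5560 below it.

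Slc30a1, the zinc exporter, was highest in aerocytes, with 1.62 ± 0.336, followed by gCap cells with 0.608 ± 0.153 (SD, n = 8 each), a gap larger than the spread. Classical monocytes (0.534 ± 0.242), ciliated cells (0.454 ± 0.0924) and arterial endothelium (0.448 ± 0.162) came next without gaps beyond the spread. In gCap cells it was higher under smoke, with 0.397, 0.455, 0.540 and 0.553 in RA mice and 0.619, 0.847, 0.688 and 0.765 in CS mice. The groups did not overlap, so the CS mouse was necessarily higher in each of the 4 lanes. The log2 difference was 0.22 (SE 0.051, limma adjusted p = 0.0336), and the gene ranked 323 by p among those tested there. This stands against 10.3% of 6556 genes passing in gCap cells, and 13.6% having all CS mice above all RA mice. With lane as a term in the fit the adjusted p was 0.0646, and without CS replicate 1, 2, 3 or 4 or RA replicate 2 it lay between 0.0519 and 0.101, while the log2 difference was 0.22 with lane and 0.19 to 0.25 without single mice. In gCap cells 0 of all genes passed with lane as a term or without CS replicate 4, where 2121 and 1643 had an unadjusted p under 0.05 in limma. With no filter on detection the adjusted p was 0.131, and with a pseudocount of 0.1 the log2 difference was 0.50. In the same cells the gCap markers Gpihbp1, Kit and Plvap summed to 23.5 to 28.2 in CS and 30.3 to 33.3 in RA mice, the digestion response genes to 51.1 to 83.4 and 107 to 139, and the corticosteroid targets to 13.5 to 17.1 and 21.4 to 32.3. None of the 3 sums overlapped between the groups, and their part in the result was not tested.

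Aerocytes, with the highest level, had Slc30a1 at 1.63, 1.97, 1.44 and 2.02 in CS and 1.04, 1.47, 1.93 and 1.45 in RA mice, which overlapped (log2 difference 0.17, 95% interval -0.07 to 0.40, limma adjusted p = 0.340). AT1 cells had 0.101, 0.177, 0.134 and 0.133 in CS and 0.0868, 0.00899, 0.0466 and 0.0345 in RA mice, without overlap, as for 5.77% of genes tested there, but the threshold was missed (0.12, SE 0.032, limma adjusted p = 0.0576). There too the gene passed the filter through CS cells only. Its 16 tested types gave 14 positive differences, from -0.03 to 0.22, with a median of 0.09, beside 0.01 over all genes and types tested. The types share mice, and 4 of the 16 passed the filter through CS cells only, so nothing is read from this tally. By the same measure, added after the data were seen for the members other than Mt1, the genes most like Slc30a1 over 28 types were Prrt4 (r = 0.86), Trib2 (0.85), Acvr1b (0.85), Pllp (0.85) and Ifi208 (0.85), all with their highest level in aerocytes.

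**Figure D5:**
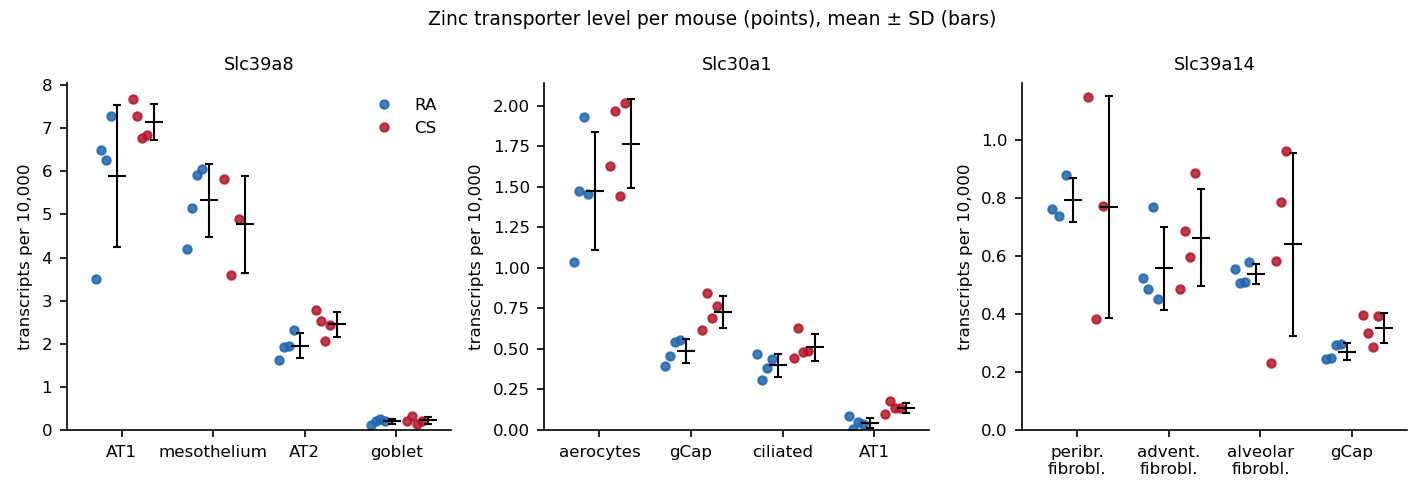
Level (transcripts per 10,000, linear axes from 0) of Slc39a8, Slc30a1 and Slc39a14 per mouse in 4 cell types each (AT1, mesothelial, AT2 and goblet cells; aerocytes, gCap, ciliated and AT1 cells; 3 kinds of fibroblasts and gCap cells), RA in blue and CS in red, with mean ± SD (n = 3 or 4 mice per group). Slc39a8 is high in AT1 and mesothelial cells in both groups; CS and RA mice separate for Slc30a1 in gCap and AT1 cells.

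Slc39a8, the importer ZIP8, was restricted to few types. AT1 cells had 6.52 ± 1.30 (SD, n = 8), mesothelial cells 5.09 ± 0.933 (n = 7) and AT2 cells 2.20 ± 0.377 (n = 8), each gap being larger than the spread, and the next type, goblet cells, had 0.212 ± 0.0641. In AT1 cells its level was 7.67, 7.29, 6.77 and 6.85 in CS and 3.50, 6.50, 6.27 and 7.28 in RA mice. RA replicate 1 stood below the rest, the other mice overlapped, and the difference was 0.28 (95% interval -0.05 to 0.61, limma adjusted p = 0.370). Mesothelial cells had 5.83, 3.60 and 4.89 in 3 CS mice and 4.21, 5.14, 5.91 and 6.06 in RA mice (-0.14, limma adjusted p = 0.714). The gene was tested in 4 types outside AT2 and passed in 0 by limma, beside 1.3% of all pairs, with 0 at an unadjusted p under 0.05. Its closest genes over cell types were Col4a4 (r = 0.93), a basement membrane collagen, Pard6b (0.88), a polarity gene, Clic3 (0.87), Myrf (0.86) and Il17re (0.86). All but Myrf were highest in AT1 cells.

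Slc39a14, the importer ZIP14, was highest in mesenchymal and lymphatic cells among the 26 types with at least 20 cells in 3 or more mice. It reached 0.780 ± 0.247 in peribronchial fibroblasts (SD, n = 6), 0.611 ± 0.155 in adventitial fibroblasts, 0.589 ± 0.214 in alveolar fibroblasts and 0.565 ± 0.280 in lymphatic endothelium (n = 8 each), whose neighbouring levels did not differ beyond their spread. Alveolar macrophages had 0.387 ± 0.0785, gCap cells 0.312 ± 0.0588 and AT1 cells 0.0568 ± 0.0277 (n = 8 each). It was tested in 11 types and passed in 0 by limma, beside 1.3% of all pairs, with 1 at an unadjusted p under 0.05. That was gCap cells, with 0.396, 0.335, 0.287 and 0.393 in CS and 0.244, 0.247, 0.291 and 0.298 in RA mice (0.09, limma adjusted p = 0.0884), where the gene passed the filter through CS cells only. Over cell types it was most like Fbxo30 (r = 0.88), Lmna (0.84), which encodes lamins A and C, Thoc6 (0.84), Ubtd2 (0.82) and Adarb1 (0.82).

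A list of 25 other genes of zinc and metal handling, namely Mt3, Mt4, the remaining Slc30a and Slc39a genes, Mtf1 and Slc11a2, was measured beside the 5 genes. Of these, 18 were frequent enough to be tested in some type, giving 231 pairs of gene and type, of which 2 (0.866%) passed, beside 1.3% of all pairs. Both were Slc39a9, which encodes the Golgi and cell surface transporter ZIP9. Ciliated cells of CS mice held 1.16 ± 0.0703 and those of RA mice 0.876 ± 0.106 (SD over 4 mice per group, log2 difference 0.21, limma adjusted p = 0.0371). The gCap cells had 0.369 ± 0.0154 and 0.250 ± 0.0351 (0.13, limma adjusted p = 0.0290). With a pseudocount of 0.1 the differences were 0.38 and 0.43. With lane as a term the adjusted p was 0.0928 in ciliated and 0.0715 in gCap cells. Without CS replicate 1, 2, 3 or 4 or RA replicate 2 or 4 it was 0.0593 to 0.111 in ciliated cells, and without CS replicate 1, 3 or 4 or RA replicate 2 it was 0.0673 to 0.0863 in gCap cells. The median log2 difference of the list was 0.03, beside 0.01 over all pairs. In AT1 cells 0 of 14 tested genes of the list passed by limma, with 2 at an unadjusted p under 0.05 and 2.38% of all genes passing there, and the list's median was 0.05. Over all types outside AT2, the digestion response list gave 0 higher and 10 lower calls in 249 pairs (median -0.15), and the corticosteroid list 1 higher and 10 lower in 120 (median -0.13).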

How the data were processed

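Right lungs of 4 CS and 4 RA mice were profiled as single cells with 10x 3' v3 chemistry. The authors aligned reads with STAR 2.7.3a to GRCm38.p6 (GENCODE release M22 with eGFP and tdTomato added), counted spliced and unspliced transcripts, used SoupX to take out free RNA and assigned cell types. The deposited values are estimated counts, of which 1.28% were whole within 1e-06, so no count model was used. The mitochondrial percent of each cell was also deposited by the authors. Of 41106 cells, 1025 labelled multiplets and 7 labelled cell cycle were left out, no other doublet caller was run, and 1574 used cells lay above 5% mitochondrial transcripts. The study states that cells above this limit were removed. Each cell was scaled to 10000 and averaged per mouse and type (at least 20 cells). Log2(mean + 1) of genes found in at least 10% of cells of either group was fitted with limma 3.58.1 (R 4.3.3, trended empirical Bayes) in 22 types with 3 or more mice per group, with Benjamini-Hochberg adjustment over all genes of a type at 0.05, and AT2 values were given without p. A fold change on this scale understates the change of low genes. For single values, mice were permuted exactly and two-sided (70 assignments for 4 against 4, smallest p 0.0286). For shares at equal depth, counts were rounded to whole transcripts and cells reduced to 2000. The procedure was tested on simulated data. The labels name each sample as a separate mouse. Depth per mouse is given with the samples, 95% intervals are limma's over mice, and the limit on a count of 0 (3 counts) covers counting error only.

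The members and lists were chosen with earlier results of these data known. Named were the 5 genes in every type, genes of the zinc and metal list that passed (at most 10), and for Mt1 the 5 genes most like it over cell types and the 10 most like it over mice. Alternatives were another pseudocount (0.1), other detection filters, summed values, quantile normalization, lane or labelled sex as a term (the latter codes CS mice against their sex-linked transcripts), other minimum cell numbers, at most 5% mitochondrial transcripts, other depths, and leaving out each mouse. AT1 cells without transcripts of the listed genes of other types (Lamp3 but not Sftpc for AT2 cells) or of eGFP were added after seeing the data. Versions were Python 3.11.15, numpy 2.4.6, pandas 2.3.3, scipy 1.17.1 and matplotlib 3.10.9.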

Additional observations from a re-analysis of the deposited data

Results flagged for a closer look

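The smoke effect on Mt1 in AT1 cells differed from that in ciliated cells by 1.88 and from that in club cells by 1.49 on the log2(level + 1) scale, in a limma test of the difference itself (adjusted p = 0.00744 and 0.0102). These contrasts were run beside the planned ones, and AT1 cells had the largest Mt1 difference of all types tested.

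Slc30a1 in classical monocytes stood at 0.867 transcripts per 10000 in RA replicate 3, where the other 3 RA mice had 0.242 to 0.305. Slc39a14 in lymphatic endothelium stood at 1.11 in CS replicate 4, where the other 3 CS mice had 0.519 to 0.597. These were the single mice far from their group among 55 groups of 4 with a mean level of at least 0.5, and chance alone flags about 1 in 20 such groups, or 2.75 here.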

How the results depend on the processing

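Mt1 in AT1 cells passed the limma test under each alternative in which it was run, with a log2 difference of 1.79 to 1.86 when each mouse was left out and 3.87 with a pseudocount of 0.1. With genes found in at least 25% of cells, Mt1 was admitted through CS cells only (65.2% against 12.6% of RA cells). Nothing is read from that setting. In AT1 cells without transcripts of the listed genes of other types (Sftpc not among them) or without eGFP, the difference was 1.77 and 1.78. There only an exact permutation over mice was run (unadjusted p = 0.0286, the smallest possible). The count of 3 calls among the 5 genes was 1 with no filter on detection, and 2 to 4 when each mouse was left out. The count of 2 calls in the zinc and metal list was 0 with no filter on detection, 1 with genes found in at least 25% of cells, 1 with lane as a term, and 0 to 2 when each mouse was left out. The 6 shares of cells at an unadjusted p under 0.05 became 2 without RA replicate 2, and ranged from 2 to 6 when each mouse was left out. Slc30a1 in AT1 cells passed with at most 5% mitochondrial transcripts (limma adjusted p = 0.0474) and without RA replicate 1 (0.0422), but it too was admitted through CS cells only. No direction turned under the alternatives run. The cause of these moves was not tested, apart from the larger number of genes adjusted for with no filter. Each lane held 1 CS and 1 RA mouse, and with this replicate block, lane as a term, Slc30a1 in gCap cells (limma adjusted p = 0.0646) and Slc39a9 in ciliated (0.0928) and gCap cells (0.0715) missed the threshold at the same log2 difference, while Mt1 in AT1 cells passed (4.94e-09). No support is taken from Mt2 there, which the filter on detection admitted through CS cells only. In gCap cells 0 of all genes passed by limma with lane as a term, where 2121 had an unadjusted p under 0.05, against 672 passing without it. Replicate numbers were given in accession order and pair no mice. Few cells and low counts limit Mt1 in AT1 cells of RA mice.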
